A study of Mus musculus with 12 samples.

Results

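Neat1, Malat1 and 6 noncoding host genes of small nucleolar RNAs (snoRNAs), Gas5, Snhg1, Snhg3, Snhg8, Snhg12 and Snhg20, were followed through RNA sequencing of 4T1 cells, a mouse breast carcinoma line. They are 8 of the 30803 genes in the table of GSH and WT libraries, found by mouse symbol. They were picked because Neat1 and Snhg20 were lower in GSH than in WT, so their differences between these groups are given as a description, with no test. GSH and WT are genotypes in the labels, with 3 libraries each. The labels do not expand GSH, and they give plain culture in serum-containing medium as the treatment of every sample. The labels also name Cas9 and Ctrl genotypes of the same line, without a target gene, of which 3 Cas9 libraries and 1 Ctrl library were used. The 8 RNAs were not analysed in Cas9 and Ctrl cells.

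Neat1 is a long nuclear RNA that scaffolds paraspeckles, bodies built on it by the proteins SFPQ, NONO and PSPC1. Malat1, its neighbour in the genome, gathers in nuclear speckles, where splicing factors are stored. Malat1 and the long form of Neat1 end in a genome-encoded A-rich tract held in a triple helix with U-rich motifs, in place of a poly(A) tail. A snoRNA host gene is spliced like an mRNA. Its introns release snoRNAs, which guide the modification of ribosomal and other RNAs, and its exons mostly encode no protein. Spliced Gas5 and Snhg1 RNAs are known to be removed by nonsense-mediated decay, and many host genes start with a pyrimidine run like that of mRNAs for the translation machinery.

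The 3′ motifs of Malat1 and of the long form of Neat1 are shown because they set these forms apart from polyadenylated transcripts. The sequences were read from GENCODE M21 transcripts (build GRCm38), are written in DNA letters from 5′ to 3′, and lie on the minus strand at chr19:5824708-5824787 for Neat1 and chr19:5795982-5796061 for Malat1. Capitals mark the longest stretches that the last 350 bases of both transcripts share, a U-rich one (CTCAGGTTTTGCTTTT) and an A-rich one (AAAAAGCAAAA).
Neat1: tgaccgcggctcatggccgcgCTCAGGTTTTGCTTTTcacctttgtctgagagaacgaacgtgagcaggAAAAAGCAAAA
Malat1: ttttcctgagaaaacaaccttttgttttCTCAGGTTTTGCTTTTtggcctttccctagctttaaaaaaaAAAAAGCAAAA
The stretches lie 32 bases apart in Neat1 and 25 bases apart in Malat1. The A-rich stretch ends at the annotated 3′ end of the Neat1 transcript, but 292 bases before that of the Malat1 transcript. Read on the transcript strand only, the U-rich stretch occurred in the last 350 bases of 2 of 127626 annotated transcripts, or 0.00157%, and these are the Neat1 and Malat1 transcripts shown. The A-rich stretch occurred in 133 of them, or 0.104%. Both stretches were defined from the Neat1 and Malat1 transcripts shown, so finding them there was fixed in advance.

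The starts of the host genes are shown because they differ in the pyrimidine run at the transcription start. The sequences come from RefSeq promoter entries (build GRCm38.p6), which matched 7 of the 8 genes, and run from 30 bases before to 50 bases after the annotated start. Capitals mark the longest run of C or T that touches the first 10 transcribed bases, on the gene's own strand.
Snhg1: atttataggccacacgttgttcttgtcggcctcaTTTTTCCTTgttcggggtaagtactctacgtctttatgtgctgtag
Snhg12: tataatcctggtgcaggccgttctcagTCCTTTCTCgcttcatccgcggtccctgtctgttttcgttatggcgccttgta
Snhg8: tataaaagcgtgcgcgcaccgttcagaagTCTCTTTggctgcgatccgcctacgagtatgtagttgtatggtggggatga
Gas5, second start: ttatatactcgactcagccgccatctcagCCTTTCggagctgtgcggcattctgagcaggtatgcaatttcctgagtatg
Snhg20: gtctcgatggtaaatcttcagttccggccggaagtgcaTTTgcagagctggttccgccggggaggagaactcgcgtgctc
These windows lie at chr19:8723457-8723536 (plus strand) for Snhg1, chr4:132308648-132308727 (plus) for Snhg12 and chr3:123508287-123508366 (minus) for Snhg8. Those of Gas5 and Snhg20 lie at chr1:161035136-161035215 and chr11:117076753-117076832, both on the plus strand. The run had 9 bases in Snhg1 and in Snhg12, 7 in Snhg8 and 6 at the second start of Gas5. It had 5 bases in Snhg3, and 3 in Snhg20, in Malat1 and at the first start of Gas5. A run of 6 or more bases occurred in 5773 of 32851 RefSeq windows, or 17.6%. This search was chosen after the sequences had been read, and a run is no evidence of the start used in these cells.

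Libraries held 18531444 to 30168737 reads in GSH and 20297490 to 21954133 reads in WT. Values are FPKM, reads scaled to the gene's exonic length and to the library total. The 8 carcinoma epithelium markers listed all exceeded 1 FPKM in every GSH and WT library, with a summed level of 2010 to 2113 FPKM in GSH and 1944 to 2016 FPKM in WT. Epcam, an epithelial adhesion molecule, was at 282 to 290 FPKM in GSH and 346 to 365 FPKM in WT. The keratins Krt8 and Krt18 lay the other way, Krt8 at 435 to 463 FPKM in GSH and 343 to 377 FPKM in WT, and Krt18 at 533 to 556 FPKM in GSH and 458 to 514 FPKM in WT. Ptprc, the common leukocyte antigen, stayed at or below 0.0405 FPKM in GSH and 0.0407 FPKM in WT. Cd3e, a subunit of the T cell receptor complex, was at 0 in 2 of the 3 GSH and 2 of the 3 WT libraries. The 13 leukocyte markers read there summed to 5.56 to 15.8 FPKM in GSH and 5.77 to 6.84 FPKM in WT, and the 6 fibroblast markers to 14.0 to 28.9 FPKM in GSH and 3.19 to 15.9 FPKM in WT, whose part in the results was not tested. In bulk RNA, fewer cells of a type and less RNA per cell cannot be told apart.

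Neat1 lies at chr19:5824708-5845478 on the minus strand, and its 20771 annotated bases are all exonic. It was at 51.1, 51.2 and 50.1 FPKM in the GSH libraries, against 86.4, 88.7 and 86.1 FPKM in the WT libraries. The groups lay far apart, and the libraries within each were close together. The mean was 50.8 ± 0.626 FPKM in GSH and 87.1 ± 1.40 FPKM in WT (SD, n = 3 each), a decrease that leaves a GSH to WT ratio of 0.583. These values rest on 19268 to 32032 reads in GSH and 37390 to 39414 reads in WT. On the log2(FPKM + 1) scale, GSH minus WT was −0.77 (SE 0.03). Of 12283 genes with a mean of at least 1 FPKM, 39 had a lower value, or 0.318%. The short and long Neat1 isoforms share the counted exon, so they cannot be told apart here.

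Malat1 lies 22035 bases from Neat1, at chr19:5795690-5802672 on the minus strand, and 6.49% of its exonic bases overlap a gene annotated on the other strand. It was at 145, 139 and 154 FPKM in GSH, against 164, 174 and 154 FPKM in WT. The groups met at their edges: the highest GSH library was at 153.8 FPKM and the lowest WT library at 153.9 FPKM. The means were 146 ± 7.40 FPKM in GSH and 164 ± 10.2 FPKM in WT (SD, n = 3 each). The log2 difference was −0.17 (SE 0.06), and 16.4% of the tested genes had a lower one.

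Gas5, a host of 10 annotated snoRNA genes at chr1:161034422-161038539 (plus strand), was at 151, 152 and 140 FPKM in GSH and at 185, 188 and 195 FPKM in WT. Every GSH library lay below every WT library. The means were 148 ± 6.59 FPKM in GSH and 189 ± 4.81 FPKM in WT (SD, n = 3 each), with a log2 difference of −0.36 (SE 0.04). Snord47, Snord78 and Snord80 are among the snoRNAs it contains.

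Snhg20 lies at chr11:117076008-117078955 on the plus strand and contains 1 gene of a small Cajal body RNA. It was at 16.2, 16.2 and 16.8 FPKM in GSH, against 25.4, 24.4 and 25.9 FPKM in WT. The groups were well separated. The means were 16.4 ± 0.339 FPKM in GSH and 25.2 ± 0.764 FPKM in WT (SD, n = 3 each), a ratio of 0.649, with a log2 difference of −0.59 (SE 0.03). Of the tested genes, 93 had a lower log2 difference, or 0.757%.

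Snhg12 lies at chr4:132308623-132311024 on the plus strand and carries Snora16a, Snora44, Snora61 and Snord99. It was at 24.7, 23.9 and 22.0 FPKM in GSH and at 29.6, 28.1 and 28.9 FPKM in WT. The groups did not overlap, and the log2 difference was −0.29 (SE 0.05). Snhg3, 36989 bases away at chr4:132348014-132353686 (minus strand), is the host of Snora73a and Snora73b. Its level was 0.336, 0.268 and 0.274 FPKM in GSH, against 0.647, 0.4997 and 0.946 FPKM in WT. These values rest on 10, 5 and 5 reads in GSH and 14, 10 and 20 reads in WT. The exact Poisson 95% intervals, which cover counting error only, run from 1.62 to 18.4 reads over the GSH libraries and from 4.80 to 30.9 reads over the WT libraries. Snhg3 was under the minimum of 1 FPKM, and 71.5% of its exonic bases overlap a gene annotated on the opposite strand, with 13.7% shared with a gene on its own strand. Its log2 difference without that minimum was −0.38 (SE 0.10).

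Snhg1 lies at chr19:8723475-8726443 on the plus strand and holds 8 annotated snoRNA genes, Snord22 among them. It was at 70.1, 64.1 and 64.0 FPKM in GSH, against 73.8, 67.6 and 69.7 FPKM in WT. GSH 1 lay within the WT range, and the log2 difference was −0.09 (SE 0.05). Snhg8, the host of Snora24 at chr3:123507552-123508404 (minus strand), was at 157, 151 and 137 FPKM in GSH and at 159, 157 and 159 FPKM in WT. The highest GSH library lay just under the lowest WT library, 157.2 against 157.3 FPKM, and the log2 difference was −0.10 (SE 0.05).

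**Figure D1:**
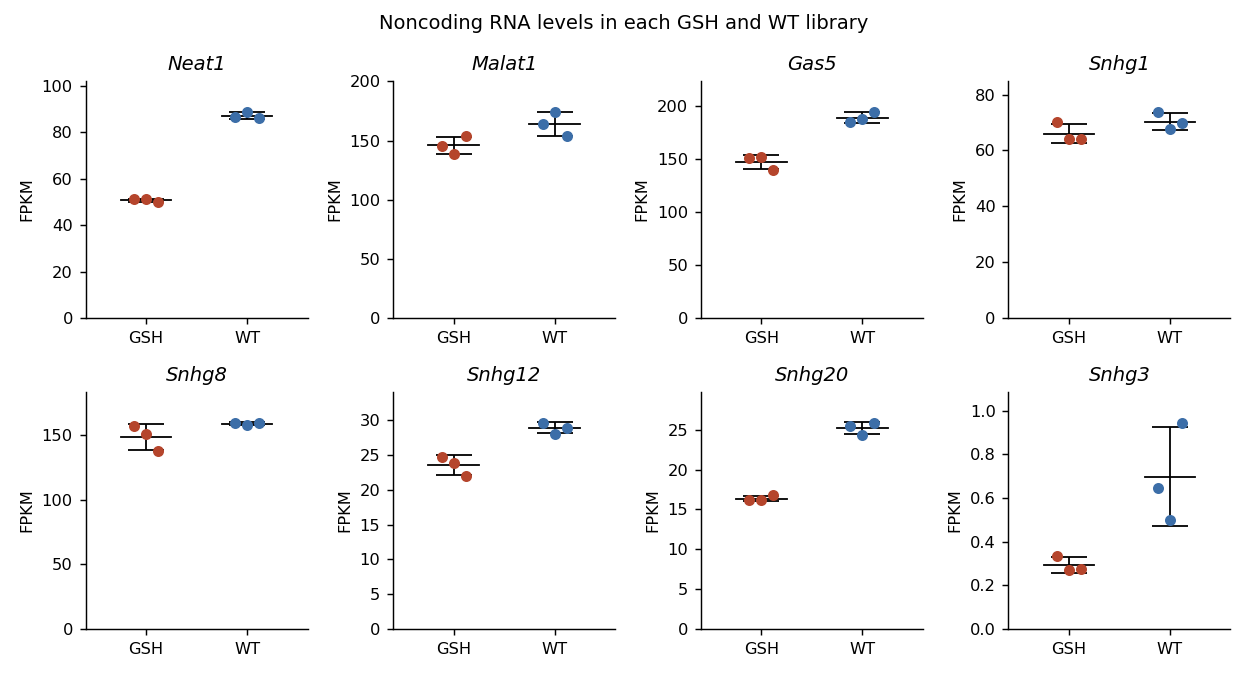
Level in FPKM of each noncoding RNA in the 3 GSH and 3 WT libraries (points), with the mean and SD of each group (horizontal lines and bars) and vertical axes from 0. Neat1 and Snhg20 show the widest gaps relative to their spread, Snhg1 overlaps between the groups, and Malat1 and Snhg8 nearly touch.

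The 8 RNAs differ in level by a wide margin. In GSH, Snhg8, Gas5 and Malat1 led at 148, 148 and 146 FPKM with overlapping ranges, followed by Snhg1 at 66.1, Neat1 at 50.8, Snhg12 at 23.5, Snhg20 at 16.4 and Snhg3 at 0.293 FPKM. In WT the order was Gas5 at 189, Malat1 at 164 and Snhg8 at 159 FPKM, then Neat1 at 87.1, Snhg1 at 70.4, Snhg12 at 28.9, Snhg20 at 25.2 and Snhg3 at 0.697 FPKM. Of neighbours in that order, only Malat1 and Snhg8 overlapped in WT. Neat1 ranked under Snhg1 in GSH and over it in WT, and the 2 ranges did not overlap in either group. These are levels per length of all annotated exons merged. The merged exons fill all of the span of Neat1, Malat1, Snhg1, Snhg8 and Snhg12, 94.8% of that of Snhg20 and 91.3% of that of Gas5. For these hosts the length therefore takes in the introns that hold the snoRNAs, and spliced and unspliced RNA cannot be told apart. The host genes contain 27 annotated snoRNA or small Cajal body RNA genes, which were not analysed here.

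The spread between libraries was set beside the error expected from counting reads. The SD between libraries was 1.23% of the mean in GSH and 1.61% in WT for Neat1, against counting errors of 0.666% in GSH and 0.511% in WT. Malat1 varied more, by 5.06% in GSH and 6.19% in WT, with counting errors of 0.677% in GSH and 0.642% in WT. Snhg8 varied by 6.85% in GSH and 0.714% in WT. Snhg20 varied by 2.07% in GSH and 3.03% in WT, close to its counting errors of 3.19% in GSH and 2.59% in WT.

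**Figure D2:**
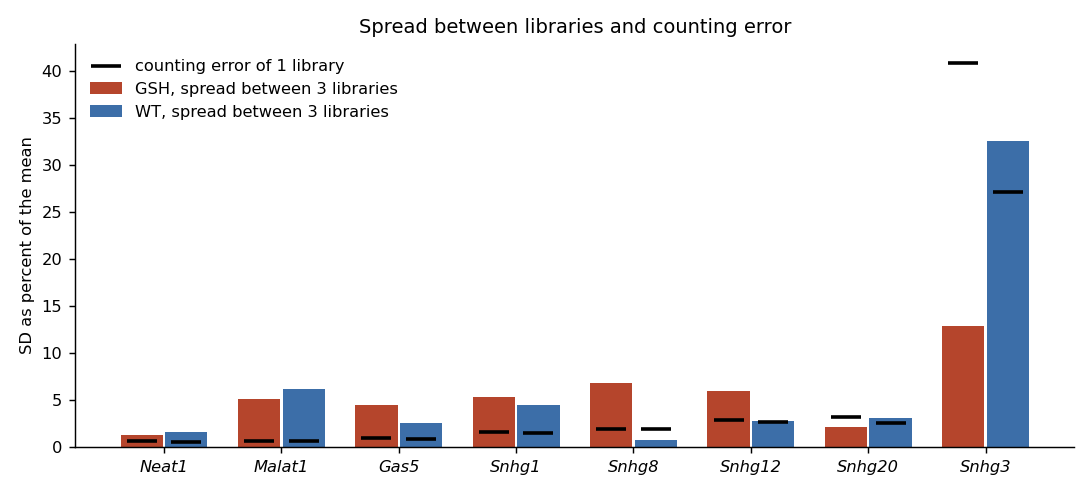
SD between the 3 GSH or 3 WT libraries as a percent of the mean FPKM (bars), with the counting error expected from the reads of 1 library (black lines). For Malat1 the spread between libraries was several times the counting error, and for Snhg3 the counting error reached 40.8% in GSH and 27.2% in WT.

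Of the 8 RNAs, 7 passed the minimum of 1 FPKM, and all of these had a lower mean in GSH. In 6 of the 7 the GSH libraries all lay below the WT libraries, where 23.5% of all tested genes did. The members were chosen from this contrast, so nothing is read from this count. The median log2 difference of the 7 was −0.29, beside 0.02 for all tested genes.

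**Figure D3:**
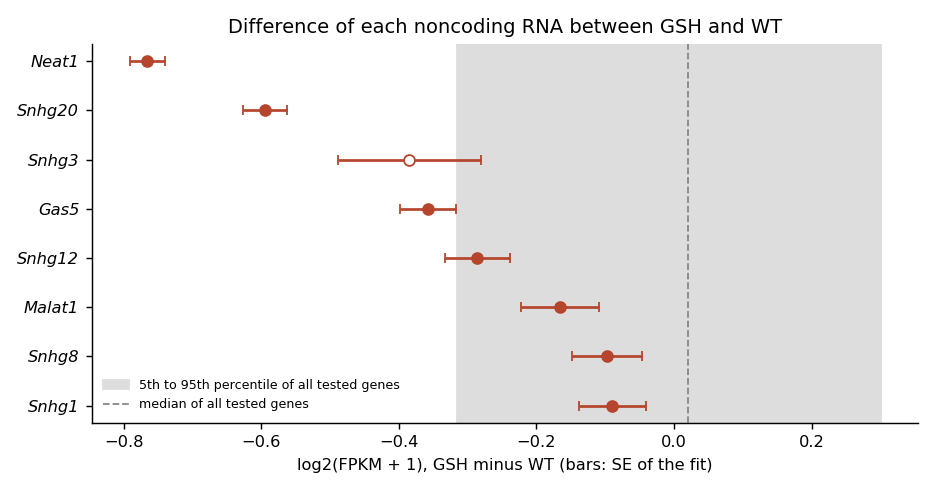
Difference in log2(FPKM + 1), GSH minus WT, of each noncoding RNA with the SE of the fit, against the 5th to 95th percentile (grey band, −0.32 to 0.30) and the median (dashed line) of 12283 tested genes. Neat1, Snhg20, Gas5 and Snhg3 lie below the band, and the open point is Snhg3, fitted without the minimum of 1 FPKM.

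Some features of the libraries moved with the groups or across them. Reads of the mitochondrial genome took 5.72 to 6.10% of a library in GSH and 8.17 to 8.48% in WT. When FPKM were rescaled to the reads outside the mitochondrial genome, the log2 difference was −0.80 for Neat1, −0.63 for Snhg20 and −0.39 for Gas5. Transcripts of lacrimal, nasal and salivary secretion genes were at 138 to 378 RPM (reads scaled to the library total) in GSH 2 and GSH 3 and 267 in WT 3, against 1.19 in GSH 1 and 1.41 to 6.16 in WT 1 and WT 2. Within the libraries high in them, the log2 difference was −0.76 for Neat1, −0.62 for Snhg20, −0.41 for Gas5 and −0.32 for Snhg12. Within the libraries low in them, it was −0.76 for Neat1, −0.59 for Snhg20, −0.30 for Gas5 and −0.21 for Snhg12. Malat1 was at −0.07 in the high set and −0.22 in the low set. Snhg1 was at −0.12 in the high set and −0.01 in the low set, and Snhg8 at −0.15 in the high set and −0.01 in the low set. Each set has 1 library of one of the groups, so the values carry no test.

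The protein-coding genes next to the noncoding RNAs were read from the same fit. Frmd8, 4223 bases from Neat1, was higher in GSH by 0.15 (SE 0.04) on the log2 scale, with a limma adjusted p of 0.0293. Beside Snhg20, Sec14l1 was higher by 0.24 (SE 0.05, limma adjusted p = 0.00897) and Mfsd11 was at −0.03 (SE 0.04, limma adjusted p = 0.552). Slc3a2, the heavy chain of amino acid transporters and 105 bases from Snhg1, was lower by a log2 difference of −0.11 (SE 0.03, limma adjusted p = 0.0168), beside −0.09 for Snhg1. The neighbours were the nearest tested protein-coding gene on each side, a rule added after the values were seen.

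The genes most like Neat1 across the 6 libraries, by the distance between centred log2 profiles among 6809 candidates, were Vamp2, Luc7l3, Ccnb1ip1, Srsf5 and Rsrp1. Vamp2, a SNARE of synaptic and other secretory vesicles, was nearest, with a distance of 0.07 and 11.9 ± 0.216 FPKM in GSH and 21.0 ± 1.01 FPKM in WT (SD, n = 3 each). Luc7l3 encodes a splicing factor, Srsf5 an SR splicing factor and Rsrp1 an arginine- and serine-rich protein. Their log2 differences were −0.67 for Luc7l3, −0.60 for Srsf5 and −0.93 for Rsrp1, and that of Ccnb1ip1, a meiotic crossover factor, was −0.89. The genes most like Snhg20 were Clk1, Rbmx, Mir22hg, mt-Co1 and Zfc3h1, at distances of 0.08 to 0.13. Clk1, a kinase of SR proteins, was at 15.8 ± 0.399 FPKM in GSH and 23.9 ± 0.446 FPKM in WT (SD, n = 3 each). Rbmx encodes an RNA-binding protein, Mir22hg hosts miR-22, mt-Co1 encodes a subunit of cytochrome oxidase, and Zfc3h1 takes part in nuclear RNA decay. These genes were selected for their likeness, so their differences are a description.

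Of all tested genes, 37.0% passed the test (limma, Benjamini-Hochberg adjusted p under 0.05), 16.4% lower and 20.6% higher in GSH, and the counts of each list are read against these shares. Of 11 other snoRNA hosts tested, 5 fell and 2 rose in GSH, with a median of −0.14, against 16.4% lower and 20.6% higher of all tested genes. Snhg10 was at 3.24 ± 0.460 FPKM in GSH and 5.46 ± 0.392 FPKM in WT (limma adjusted p = 0.00402). Snhg5 was at 57.1 ± 2.33 FPKM in GSH and 69.2 ± 1.18 FPKM in WT (limma adjusted p = 0.00324), and Zfas1 and the protein-coding hosts Eif4a2 and Nop56 were also lower. Rps12, which encodes a ribosomal protein, was at 309 ± 18.4 FPKM in GSH and 244 ± 13.3 FPKM in WT (limma adjusted p = 0.00663), and Snhg17 was also higher. In a further list of snoRNA and small Cajal body RNA genes, added after the values were seen, 6 of 50 fell and 2 rose, where 16.4% of all tested genes were lower and 20.6% higher. Where such a short gene lies inside a host gene, reads of the 2 cannot be told apart.

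Of 13 other long noncoding RNAs tested, 8 fell and 1 rose, with a median of −0.25, against 16.4% lower and 20.6% higher of all tested genes. Mir22hg was at 11.1 ± 0.435 FPKM in GSH and 17.1 ± 1.12 FPKM in WT (limma adjusted p = 0.00178). Mir17hg, the host of the miR-17 cluster, was at 8.42 ± 0.469 FPKM in GSH and 11.6 ± 0.336 FPKM in WT (limma adjusted p = 0.00210). Firre, a nuclear RNA, and Pvt1, a neighbour of Myc, were lower too, and 2900097C17Rik was higher.

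Of 33 genes tested for proteins of paraspeckles, the bodies built on Neat1, 14 fell and 6 rose, with a median of −0.04. The share lower was above the 16.4% of all tested genes, and the share higher was near their 20.6%. Rbmx was at 12.2 ± 0.445 FPKM in GSH and 18.4 ± 0.601 FPKM in WT (limma adjusted p = 0.00123), and Rbm3, another RNA-binding protein, was lower as well. Nono, a core paraspeckle protein, was higher, at 114 ± 0.993 FPKM in GSH and 100.03 ± 0.940 FPKM in WT (limma adjusted p = 0.00308). The other core proteins named above did not pass: Sfpq had a log2 difference of 0.02 (limma adjusted p = 0.720) and Pspc1 one of 0.11 (limma adjusted p = 0.0798). Of 24 nuclear speckle genes, 12 fell and 1 rose, with a median of −0.12, where 16.4% of all tested genes were lower and 20.6% higher. Srsf5 was at 103 ± 4.21 FPKM in GSH and 156 ± 5.33 FPKM in WT (limma adjusted p = 0.00123). The kinases Clk1 and Clk4 and the splicing cofactor Pnn fell too, while Rnps1 rose.

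Of 17 tested genes of snoRNA-protein complexes, 10 rose and 2 fell in GSH, with a median of 0.14, against 20.6% higher and 16.4% lower of all tested genes. Fbl, the methyltransferase of box C/D complexes, was at 43.0 ± 0.563 FPKM in GSH and 35.5 ± 0.650 FPKM in WT (limma adjusted p = 0.00186). Nhp2, a subunit of H/ACA complexes, and the assembly ATPases Ruvbl1 and Ruvbl2 rose, and Nop56 and Nop10 fell. Of 22 mRNAs of translation and related factors known to start with a pyrimidine run, 18 rose and 0 fell, with a median of 0.19, against the same shares of all tested genes, 20.6% higher and 16.4% lower. Eef1a1, an elongation factor, had a log2 difference of 0.42 (SE 0.05, limma adjusted p = 0.00258), Eif3f one of 0.30 (SE 0.03, limma adjusted p = 0.00187) and Eif3h one of 0.28 (SE 0.03, limma adjusted p = 0.00222). The windows of Snhg1, Snhg8 and Snhg12 shown above hold a run of 6 or more bases touching the first 10 transcribed bases. These genes had log2 differences of −0.09, −0.10 and −0.29. Gas5, with such a run at its second start and a shorter one at its first, had −0.36. Snhg20 and Malat1, with runs of 3 bases, had −0.59 and −0.17. The Snhg1 run begins inside the transcript, not at its first base. FPKM were also rescaled to the FPKM total outside mitochondrial genes, where 1016 of all tested genes rose and 3625 fell. There, 8 of these mRNAs and 3 genes of snoRNA-protein complexes rose. Rescaled to the reads outside the mitochondrial genome, where 1890 of all tested genes rose and 2517 fell, 16 and 7 rose. The rescaling to reads was chosen after the data were seen.

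Of 18 factors of nonsense-mediated decay, which removes spliced Gas5 RNA, 5 rose and 3 fell, with a median of 0.01, near the 20.6% higher and 16.4% lower of all tested genes. Rescaled to the FPKM total outside mitochondrial genes, 2 of them rose and 7 fell, and rescaled to the reads, 3 rose and 4 fell. Eif4a3, a core protein of the exon junction complex, was at 97.2 ± 2.45 FPKM in GSH and 82.2 ± 1.88 FPKM in WT (limma adjusted p = 0.00315). Upf1, the central helicase, was at 48.0 ± 1.05 FPKM in GSH and 52.3 ± 0.300 FPKM in WT (limma adjusted p = 0.0138). Of 11 transcripts known to be regulated by this decay, 3 rose and 2 fell, again near the 20.6% higher and 16.4% lower of all tested genes. With the FPKM total rescaling 0 rose and 5 fell, and with the rescaling to reads 3 rose and 3 fell. Gadd45b, among the 2 that fell without rescaling, was at 29.5 ± 2.34 FPKM in GSH and 43.6 ± 1.22 FPKM in WT (limma adjusted p = 0.00207).

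**Figure D4:**
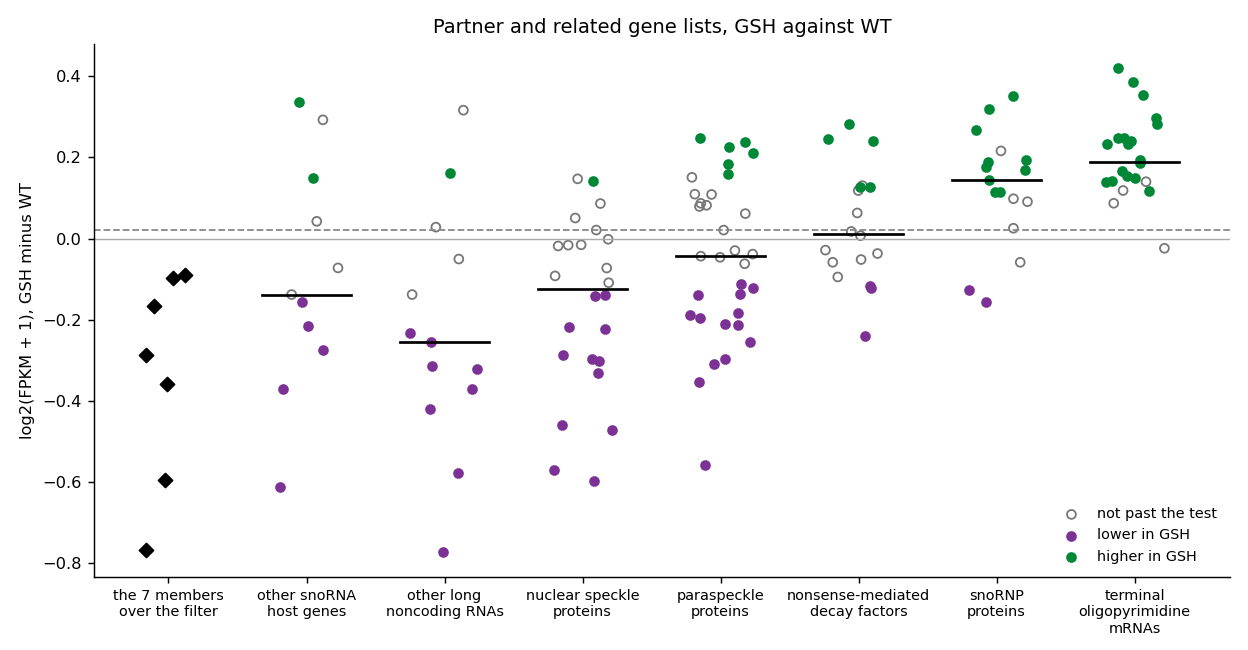
Difference in log2(FPKM + 1), GSH minus WT, of the 7 noncoding RNAs over the minimum of 1 FPKM (black diamonds) and of each tested gene of 7 lists (circles, filled where the limma adjusted p was under 0.05), with list medians as black lines and the median of all tested genes dashed. Lists of noncoding RNAs and speckle proteins have medians below 0, while snoRNA-protein complexes and terminal oligopyrimidine mRNAs have medians above it.

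In Cas9 and Ctrl cells, related genes were read without the 8 RNAs. Limma called 0 of 11407 genes, with 210 at an unadjusted p under 0.05, in a fit with 1 Ctrl library. The 3 other snoRNA hosts tested there were Rps12, at 1234 ± 152 FPKM in Cas9 and 984 FPKM in Ctrl, Eif4a2, at 69.8 ± 5.32 FPKM in Cas9 and 72.6 FPKM in Ctrl, and Nop56, at 21.4 ± 2.70 FPKM in Cas9 and 21.5 FPKM in Ctrl (SD, n = 3 Cas9 libraries). Leukocyte markers in these libraries summed to 2567 to 6089 FPKM in Cas9 and 5198 FPKM in Ctrl. Fibroblast markers summed to 450 to 1526 FPKM in Cas9 and 989 FPKM in Ctrl. Endothelium markers summed to 45.6 to 105 FPKM in Cas9 and 55.0 FPKM in Ctrl. These sums lay far above those of the GSH and WT libraries, as did those of adipocyte markers. Carcinoma epithelium markers, at 1837 to 2888 FPKM in Cas9 and 2305 FPKM in Ctrl, did not. The part of other cell types in these values was not tested.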

How the data were processed

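Per the labels' protocols, Trizol RNA of 4T1 cells was sequenced after a NEBNext Ultra RNA preparation. Strand handling is not given in the sources used here. Per the submitters' processing notes, the tools were HISAT2 (2), Bowtie2 (2.2.3) and HTSeq (0.6.0), and the build mm8. No label or header states a unit: the values deposited by the authors were taken as FPKM, from the values themselves. With merged exon lengths of GENCODE M21 (GRCm38), 98.7% of values worth up to 200 reads came within 0.05 of whole reads, which gave reads and library totals, and M21 coordinates were therefore used. Of 12 samples, 10 were used; Ctrl 1 and Ctrl 2 were not analysed here. GSH and WT, and Cas9 and Ctrl, were tabulated and tested separately.

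Tests used limma 3.58.1 (R 4.3.3) with a trend on log2(FPKM + 1), over genes averaging at least 1 FPKM, with group as the only term, two-sided, and Benjamini-Hochberg adjustment at 0.05. This scale understates changes of low genes. The fit was also run on simulated data. Their spread between libraries beyond counting error was set lower than that of Malat1 here, so nothing is concluded from that run. Nothing says that replicates were separate cultures, so a p-value reflects variation among these libraries that could be technical. Members and lists were chosen with earlier results of these data known. Named genes were the 8 members, up to 4 called genes of smallest p per list, and the 5 nearest profiles to Neat1 and to Snhg20. Other genes behind a count of 5 or fewer were named after their values were seen. Some genes that these rules name are not reported here. Symbols matched 30190 of 30803 identifiers. Alternatives were another pseudocount, filter, scaling or trend, leaving out libraries, and a replicate block.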

Additional observations from a re-analysis of the deposited data

How the results depend on the processing

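The 7 tested members kept a negative log2 difference under all 16 alternatives, with Neat1 between −0.87 and −0.75 and Snhg20 between −0.69 and −0.58. Another filter, no trend and the replicate block leave a member's difference unchanged by construction, so only the other alternatives could move it. Snhg3 was not rerun, being under the minimum. Depth limits Snhg3 most, with 5 to 20 reads a library, and the spread of Snhg20, and of Snhg8 in WT, was near or under counting error. Of 12283 genes, 4547 were called in GSH against WT, 2533 higher and 2014 lower. Leaving out 1 library gave 2998 (without WT 1) to 3671 calls, 1663 to 2089 higher and 1335 to 1631 lower. It gave 1 to 2 other snoRNA hosts higher, 1 to 2 snoRNA-protein genes lower, 2 to 5 decay factors higher and 0 to 3 lower, and 0 to 1 other long noncoding RNAs higher.

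With FPKM rescaled to the total without mitochondrial genes, 1016 genes were higher and 3625 lower, so that 21.9% of calls were higher, against 55.7% as reported; with the read total in its place, an alternative chosen after seeing the data, it was 42.9%. The first rescaling gave log2 differences of −0.87 for Neat1, −0.27 for Malat1, −0.19 for Snhg1, −0.20 for Snhg8, −0.39 for Snhg12, −0.69 for Snhg20 and −0.46 for Gas5. It left 1 other snoRNA host, 3 paraspeckle genes, 0 nuclear speckle genes, 3 snoRNA-protein genes, 2 decay factors, 0 decay-regulated transcripts, 8 oligopyrimidine mRNAs and 0 other long noncoding RNAs higher, with 7 decay factors, 5 decay-regulated transcripts and 1 oligopyrimidine mRNA lower. Neat1 was at −0.80 with the read total and −0.79 with relative log expression scaling, where 3 decay factors were higher in each; without a filter, 2 decay factors were higher and 1 lower.

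Only GSH 1, WT 1 and WT 2 gave 4 calls, 3 higher and 1 lower, with 3797 genes at an unadjusted p under 0.05; only GSH 2, GSH 3 and WT 3 gave 0 calls, 0 higher and 0 lower, with 3401 at that p. Both have 1 residual degree of freedom, and both left 0 calls in either direction in each list. In the first set Gas5 was at −0.30, Snhg1 at −0.011, Snhg12 at −0.21 and Snhg8 at −0.0097; in the second Gas5 was at −0.41 and Malat1 at −0.073.

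With a replicate block, 3867 genes were called. Deviations of GSH and WT libraries with the same number correlated by 0.48, −0.11 and 0.21, and GSH 2 correlated best with WT 3, so the numbers were not taken to pair samples. No paired analysis was possible for Cas9 against Ctrl because they share 1 number. Limma called 0 genes there under every alternative run, and rescaling without mitochondrial genes was not run for that table. The cause of the changes listed here was not tested.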
